A study of Mus musculus with 6 samples.

Results

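The thrombospondins are a family of 5 secreted glycoproteins, encoded in the mouse by *Thbs1*, *Thbs2*, *Thbs3*, *Thbs4* and *Comp*. They were described here in cells of the aortic root and ascending aorta traced to the secondary heart field (SHF) or the cardiac neural crest (CNC). The members were the rows of the expression matrix with these symbols, 5 of 24421 rows, and all 5 passed the filter on low values. The family was chosen by the SHF and CNC levels in the same 6 libraries, because *Thbs4* met the study's filter for SHF-exclusive transcripts. The contrast of SHF with CNC was therefore known for the members, and their differences are given as a description, with no test.

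All mice were of the 129S6/SvEv background, were 8 weeks of age and carried the conditional *CAG-Sun1/sfGFP* tracer allele, which labels the nuclear envelope with green fluorescent protein after Cre recombination. Those of the SHF group carried *Mef2cSHF* Cre and those of the CNC group *Wnt1-Cre2*, with 3 libraries in each group. The libraries of both groups are all labelled WT (wild type). These Cre alleles mark a developmental lineage and not a cell type, and living GFP+ cells were sorted after digestion of the tissue with no marker of smooth muscle cells. Levels were deposited as TPM, transcript levels corrected for length and scaled to the total of a library. They sum to about 1000000 in each library and keep no depth, so no counting error can be given, and a value of 0 is written here as listed at 0. In bulk samples, fewer cells of a type and less RNA per cell cannot be told apart.

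Marker lists gave a rough view of what the sorted cells held. The summed level of 10 fibroblast genes was between 33606.7 and 50535 TPM, while that of 12 smooth muscle genes was between 1309.4 and 3121.2 TPM. Most of the fibroblast sum came from *Dcn* and *Gsn*, at no less than 11604.17 and 13900.26 TPM. *Pdgfra* was between 83.83 and 247.38 TPM, below *Acta2* of the smooth muscle list, between 363.06 and 956.16 TPM. Sums over different genes do not give the shares of cell types. Endothelial genes, 10 in number, summed to between 99.4 and 622 TPM in SHF libraries and between 24.3 and 73.6 TPM in CNC libraries. Of 8 platelet and megakaryocyte genes, 5 were listed at 0 in all 6 libraries, *Ppbp* and *Gp9* among them, and the highest sum was 23.4 TPM. Leukocyte genes reached 276.2 TPM in CNC replicate 2 and at most 31.5 TPM in the other libraries, and the pan-leukocyte gene *Ptprc* was listed at 0 in all 6. *Xist* was above 0 in SHF replicates 2 and 3 and the Y-linked *Ddx3y* in the other 4 libraries, so that sex differed among the SHF libraries and was not balanced between the lineages.

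Thrombospondins bind cells and matrix at once and change how cells adhere, migrate and respond to growth factors. Thbs1 and Thbs2 form trimers, carry type 1 repeats and inhibit angiogenesis, and Thbs1 can activate latent TGF-β. Thbs3, Thbs4 and Comp lack the type 1 repeats and form pentamers, and Comp, the cartilage oligomeric matrix protein, links collagen fibers in cartilage, tendon and the vessel wall. Receptors of the family include Cd36, Cd47, integrins and the clearance receptor Lrp1.

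Promoter windows from RefSeq on GRCm38.p6 were found for 3 of the 5 members, *Thbs2*, *Thbs3* and *Thbs4*. Those of *Thbs2* and *Thbs4* are shown because these members were higher in every SHF library than in any CNC library. Each line gives the 250 bases before the annotated start, 5′ to 3′ on the strand of the gene, with capitals at matches to 6 motifs searched on both strands. The motifs were the TATA box (TATAAA), the CCAAT box (CCAAT), the GC box (GGGCGG), the core bound by Smad proteins (CAGAC), the MEF2 site and the CArG box, and they were chosen after the windows had been seen.
*Thbs2*, chr17:14694263-14694512, minus strand: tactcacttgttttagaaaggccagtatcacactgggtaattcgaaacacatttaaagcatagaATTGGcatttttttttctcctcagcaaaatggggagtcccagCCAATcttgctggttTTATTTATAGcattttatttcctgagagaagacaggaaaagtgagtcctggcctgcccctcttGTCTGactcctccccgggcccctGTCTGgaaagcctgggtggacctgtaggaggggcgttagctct
*Thbs4*, chr13:92794819-92795068, minus strand: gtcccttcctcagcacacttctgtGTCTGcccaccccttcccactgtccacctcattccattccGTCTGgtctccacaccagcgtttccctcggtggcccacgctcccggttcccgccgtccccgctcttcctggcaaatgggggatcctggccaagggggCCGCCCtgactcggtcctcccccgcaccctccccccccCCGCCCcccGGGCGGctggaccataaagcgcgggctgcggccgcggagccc
The windows differed in composition, with 46.8% G or C for *Thbs2* and 70.8% for *Thbs4*, against a median of 52.4% over 32851 windows. The *Thbs4* window held 3 GC boxes, a motif present in 32.7% of all windows of this length, and no TATA box. The *Thbs2* window held a match to the MEF2 site, present in 2.92% of windows, and a TATA box, present in 12.4%, lies within it on the opposite strand. Both windows held 2 matches to CAGAC, which 42.2% of windows hold. CCAAT is present in 33.8% of windows and was matched in the *Thbs2* window, and the CArG box, present in 1.47%, was matched in neither. A match describes the letters and not binding by a factor.

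*Thbs1*, on chromosome 2 of GRCm38 from 118111876 to 118127133 on the plus strand, is the member best known for activating TGF-β and for its rapid induction in injured vessels. Its level was 504.29, 544.75 and 98.67 TPM in SHF replicates 1, 2 and 3, and 66.02, 76.31 and 49.45 TPM in CNC replicates 1, 2 and 3, the order used for all values by library. Every SHF library was above every CNC library, but SHF replicate 3 lay far below the other 2 SHF libraries and was 1.29 times the highest CNC library. The mean was 382.6 ± 246.7 TPM (SD, n = 3) in SHF and 63.9 ± 13.6 TPM (SD, n = 3) in CNC libraries. On the log2(TPM + 1) scale, which understates changes of low genes, the difference of SHF minus CNC was 2.24 with a standard error of 0.61 from limma. It was 3.04 without SHF replicate 3.

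*Thbs2*, on chromosome 17 from 14665500 to 14694235 on the minus strand, encodes the other trimeric member, which together with Lrp1 takes part in clearing matrix metalloproteinase 2. Its level was 64.5, 81.79 and 76.8 TPM in SHF against 45.55, 37.73 and 39.99 TPM in CNC. The lineages did not overlap, and the lowest SHF library was 1.42 times the highest CNC library. *Thbs2* had the smallest spread of the family, with a coefficient of variation of 12% in SHF and 9.8% in CNC libraries, against 64.5% and 21.2% for *Thbs1*. The difference was 0.84 on the log2(TPM + 1) scale with a standard error of 0.51, which limma takes in part from other genes of this level. The spread of *Thbs2* itself within the lineages was 0.16 on that scale (pooled SD).

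*Thbs4*, on chromosome 13 from 92751590 to 92794818 on the minus strand, encodes a pentameric member found in tendon, muscle and injured heart, where it is linked to the adaptive response of the endoplasmic reticulum. Its level was 28.66, 17.44 and 22.97 TPM in the SHF replicates, and it was listed at 0 in each CNC library. It was the lowest member in all 6 libraries. The exclusive filter asks for more than 5 TPM throughout one lineage and 0 throughout the other, and it took 0.0778% of all rows for SHF and 0.0614% for CNC. *Thbs4* was 1 of the 19 rows that passed it for SHF, and no other member did. No fold is given against a lineage listed at 0.

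A value of 0 was frequent at this level. Of 1517 rows whose SHF mean lay between 17.44 and 28.66 TPM, the range of *Thbs4*, 27.1% were listed at 0 in at least 1 CNC library, and 25.3% in at least 1 SHF library. The share listed at 0 in all 3 CNC libraries was 1.98%. Among the 39 rows with each SHF library inside that range, 5.13% were at 0 in all 3 CNC libraries, which are *Thbs4* and 1 other row.

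*Comp*, on chromosome 8 from 70373558 to 70382066 on the plus strand, went in the opposite direction to *Thbs1*, *Thbs2* and *Thbs4*. Its level was 308.02, 432.8 and 319.13 TPM in SHF against 696.17, 1000.42 and 763.64 TPM in CNC. The lineages did not overlap, and the lowest CNC library was 1.61 times the highest SHF library. The mean was 353.3 ± 69.1 TPM (SD, n = 3) in SHF and 820.1 ± 159.8 TPM (SD, n = 3) in CNC libraries, 2.32 times higher in CNC. The difference of SHF minus CNC was -1.21 on the log2(TPM + 1) scale with a standard error of 0.29. *Comp* was the most abundant member on average and ranked 261 of all rows by mean TPM, against 693 for *Thbs1*, 2010 for *Thbs3*, 2456 for *Thbs2* and 7037 for *Thbs4*.

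*Thbs3*, on chromosome 3 from 89215180 to 89226837 on the plus strand, is the least studied pentameric member. It was at 49.36, 49.76 and 83.51 TPM in SHF against 56.34, 159.85 and 42.3 TPM in CNC, so that the lineages overlapped. The highest value came from CNC replicate 2, the library with the most leukocyte transcripts, and their part in it was not tested. The difference of SHF minus CNC was -0.3 on the log2(TPM + 1) scale with a standard error of 0.6, and it turned to 0.27 without CNC replicate 2. In GENCODE M21, exons of *Thbs3* share 318 bases with exons of *Mtx1* on the opposite strand, and exons of *Thbs1* share 208 bases with those of the lincRNA *Gm29233*, also on the opposite strand. No use of strand is stated for the counting, so reads in either stretch could belong to either gene.

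**Figure D1:**
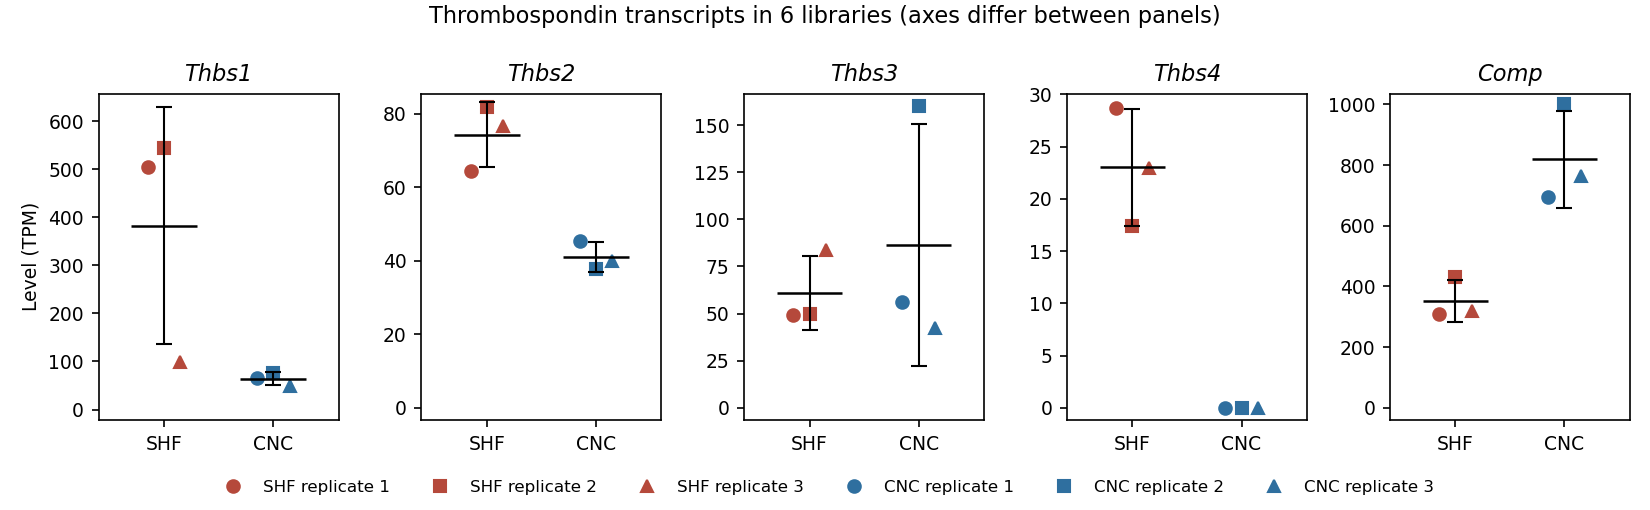
Level (TPM) of each thrombospondin transcript in 3 SHF and 3 CNC libraries, with 1 panel a gene and a different axis in each. Symbols are libraries, horizontal lines lineage means and error bars SD (n = 3), with none drawn for *Thbs4* in CNC, where all 3 libraries are listed at 0. The lineages overlap for *Thbs3* and not for the other 4 genes, and *Comp* is the gene higher in CNC.

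In all, 3 members were higher in every SHF library than in any CNC library, 1 was lower and 1 overlapped. Of 10185 genes tested, 6.11% had every SHF library above every CNC library and 5.68% the reverse. Since the family was chosen with these values known, nothing is read from the members' count against that share.

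The total of the family overlapped between the lineages, while the share of *Comp* and that of the trimeric members did not. The summed level of the 5 transcripts was 954.8, 1126.5 and 601.1 TPM in SHF against 864.1, 1274.3 and 895.4 TPM in CNC. *Comp* made up 32.3%, 38.4% and 53.1% of it in the SHF replicates and 80.6%, 78.5% and 85.3% in the CNC replicates. *Thbs1* and *Thbs2*, the trimeric members, made up 48.1 ± 16.5% (SD, n = 3) in SHF and 10.6 ± 2.1% (SD, n = 3) in CNC libraries. The level of *Comp* was 0.61, 0.79 and 3.23 times that of *Thbs1* in the SHF replicates and 10.54, 13.11 and 15.44 times in the CNC replicates. This ratio is taken within a library and does not depend on the scaling between libraries.

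**Figure D2:**
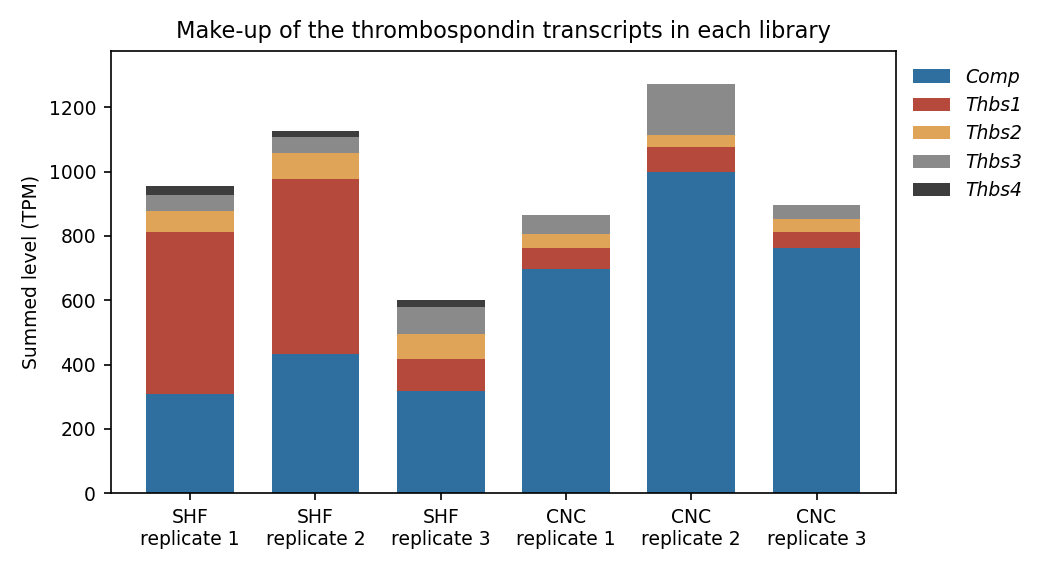
Summed level (TPM) of the 5 thrombospondin transcripts in each library, with each segment showing 1 gene. *Comp* is the largest segment in the 3 CNC libraries and in SHF replicate 3, and *Thbs1* is the largest in SHF replicates 1 and 2.

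The order of the levels followed from these values. In CNC libraries *Comp* was first in all 3, and its lowest value of 696.17 TPM was far from the highest of any other member, 159.85 TPM for *Thbs3*. *Thbs3*, *Thbs1* and *Thbs2* followed by mean, at 86.2 ± 64.2, 63.9 ± 13.6 and 41.1 ± 4 TPM (SD, n = 3). *Thbs3* and *Thbs1* did not differ beyond their spread, and *Thbs1* was above *Thbs3* in CNC replicates 1 and 3. *Thbs1* was above *Thbs2* in each CNC library. In SHF libraries *Thbs1* and *Comp* overlapped, as did *Thbs2* at 74.4 ± 8.9 TPM and *Thbs3* at 60.9 ± 19.6 TPM (SD, n = 3). *Thbs4* was below *Thbs3* by 1.72, 2.85 and 3.64 times in the SHF replicates.

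Other cell types in the sort moved with some of these differences. The endothelial sum did not overlap between the lineages, and its part in the higher *Thbs1*, *Thbs2* and *Thbs4* of SHF libraries was not tested. By replicate, the endothelial sum was 99.4, 622 and 520.4 TPM in SHF and 60.8, 73.6 and 24.3 TPM in CNC. Within the SHF libraries *Thbs2* had the same order as this sum, being lowest in replicate 1 and highest in replicate 2, *Thbs4* had the reverse order, and *Thbs1* was highest in replicate 2 and lowest in replicate 3. Of the 10 endothelial genes, 4 were higher in every SHF library than in any CNC library, *Cdh5*, *Emcn*, *Tie1* and *Vwf*. The share over all genes tested was 6.11%, which counts only genes past the filter on low values. *Tie1* and *Vwf* reached 1 TPM in SHF replicates 2 and 3 alone and did not pass that filter. *Thbs1* is also an early response gene, and 12 genes of the response to dissociation, such as *Fos*, *Egr1* and *Atf3*, summed to 15254.9, 6544.2 and 12305.9 TPM in the SHF replicates and to between 7659.9 and 9440.7 TPM in CNC libraries. SHF replicates 1 and 3 were above every CNC library in this sum, and SHF replicate 2, with the highest *Thbs1*, was below them all. The part of this response in the level of *Thbs1* was not tested. Platelets are rich in Thbs1, and the sum of their 8 markers was 0 to 1.5 TPM in SHF and 1 to 23.4 TPM in CNC libraries, where *Pf4* at 23.21 TPM in CNC replicate 2 gave the highest value. Their part was not tested. For *Thbs4*, found in muscle and injured heart, 10 cardiomyocyte genes summed to 127.8, 99.2 and 162.9 TPM in the SHF replicates. In the CNC replicates they summed to 118.1, 7.8 and 5.8 TPM, so that the lineages overlapped. The part of such cells in the level of *Thbs4* was not tested.

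**Figure D3:**
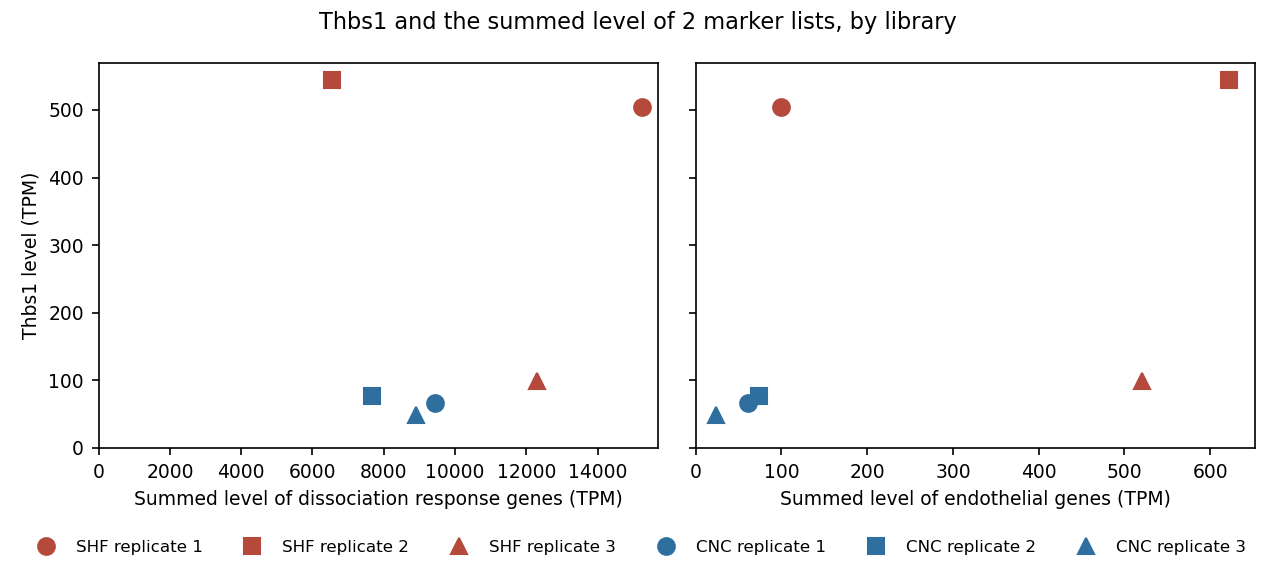
Level of *Thbs1* (TPM, vertical axis) against the summed level of 12 dissociation response genes (left) and 10 endothelial genes (right) in each library. SHF replicates 1 and 2 have 504.29 and 544.75 TPM of *Thbs1* and lie at opposite ends of both horizontal axes among the SHF libraries, and the CNC libraries have at most 76.31 TPM.

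*Comp* and *Thbs4* are also expressed in tendon and cartilage. Of 10 genes of those tissues, *Chad*, *Sox9*, *Fmod* and *Prg4* were above 0 in every library, while *Col2a1* was at most 0.08 TPM. The list summed to between 442.6 and 998.1 TPM in SHF and between 681.2 and 1347.5 TPM in CNC libraries, with overlap, and its part in the levels of *Comp* and *Thbs4* was not tested. In each direction 1 of the 10 genes separated the lineages, against 6.11% of genes tested for SHF and 5.68% for CNC. Those shares count only genes past the filter on low values, which *Scx*, *Mkx*, *Col2a1* and *Acan* did not pass. *Sox9*, a transcription factor of cartilage, was higher in SHF, at 93.63, 132.65 and 59.27 TPM against 52.59, 43.81 and 31.95 TPM. *Fmod*, a collagen-binding proteoglycan of tendon, was at 117.52, 240.27 and 162.25 TPM in SHF against 514.18, 448.49 and 1015.73 TPM in CNC, the gene higher in CNC. *Scx*, a tendon transcription factor, was above 0 in SHF replicate 1 (5.86 TPM) and SHF replicate 2 (41.02 TPM) alone among the 6 libraries, and *Tnmd*, a tendon membrane protein, was at 15.12, 0 and 19.68 TPM in SHF against 38.52, 0 and 47.82 TPM in CNC.

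Genes that act with thrombospondins were taken from 7 lists with 107 genes, all with a row in the matrix, of which 85 passed the filter. In limma with Benjamini-Hochberg adjustment over all 10185 genes, 0 of the 85 had an adjusted p under 0.05, as did 0.0% of all genes, and the smallest adjusted p in the lists was 0.465. At an unadjusted p under 0.05 there were 18 of the 85, against 5.86% of all genes tested. By direction, 4 of the 85 genes were higher in every SHF library and 16 in every CNC library, or 4.71% and 18.8%. The background shares, over the 10185 genes tested here and below, were 6.11% and 5.68%. The lists were chosen with earlier results of these data known. Nothing is therefore read from their counts or medians, together or by list, against those of all genes. The median difference of the 85 genes was -0.2 on the log2(TPM + 1) scale, against 0.02 over all genes.

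The list with the most CNC-higher genes was that of the matrix partners. Among 16 tested matrix partners, 6 were higher in every CNC library and 1 in every SHF library, 37.5% and 6.25% against 5.68% and 6.11% of all genes, with a median difference of -0.83. *Col1a1*, the main chain of type I collagen, which Comp binds, was at 4541.34, 4004.56 and 4396.34 TPM in SHF against 11791.92, 7322.3 and 12778.1 TPM in CNC. Its difference was -1.26 with a standard error of 0.24 and an adjusted p of 0.465. *Serpinh1*, the collagen chaperone, was at 842.93, 788.68 and 483.53 TPM in SHF against 1637.88, 2240.43 and 1945.29 TPM in CNC, with a difference of -1.49 and an adjusted p of 0.465. *Col3a1*, *Fmod*, *Col1a2* and *Matn2*, a matrilin, were the other CNC-higher genes of the list. *Dcn*, a proteoglycan that binds Thbs1, was the most abundant partner and did not separate the lineages, at 12300 ± 602 TPM in SHF and 13400 ± 1400 TPM in CNC libraries (SD, n = 3). No difference in the list passed the test. Of the 10 fibroblast markers, 4 were also higher in every CNC library and 0 in every SHF library, against 5.68% and 6.11% of all genes tested. *Pi16* was at 801.71, 338.64 and 916.7 TPM in SHF against 1931.51, 1455.92 and 1168.05 TPM in CNC, and *Clec3b*, *Serpinf1* and *Col14a1* were the others. Their part in the levels of the matrix genes and of *Comp* was not tested. *Vcan*, which encodes the proteoglycan versican, was the SHF-higher gene of the list, at 234.21, 303.93 and 134.79 TPM against 88.63, 94.78 and 96.71 TPM in CNC.

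Among 16 genes of endoplasmic reticulum stress and folding, the process to which Thbs4 is linked, 14 had a difference below 0, as did 4969 of the 10184 tested genes with each symbol counted once. The median was -0.73 against 0.02 over all genes. *Hsp90b1*, *Pdia4*, *Pdia6* and *Dnajc3*, 4 genes or 25% of the list, were higher in every CNC library, against 5.68% of all genes. None passed the test, with adjusted p-values of 0.784 and above by limma. *Hspa5*, the chief chaperone of this compartment, was at 1788.43, 575.43 and 616.07 TPM in SHF against 1256.66, 1969.39 and 1100.9 TPM in CNC, with overlap. Of the 4 genes that separated the lineages, 3 did so by a narrow margin. The highest SHF and lowest CNC values were 832.71 and 834.77 TPM for *Hsp90b1*, 109.3 and 110.43 TPM for *Dnajc3* and 291.16 and 299.17 TPM for *Pdia4*, while *Pdia6* had 322.49 and 377.97 TPM.

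Of 13 tested receptors and cell-surface partners, 1 was higher in every SHF library and 1 in every CNC library, 7.69% in each direction, which is near the 6.11% and 5.68% of all genes. *Sdc4*, a heparan sulfate proteoglycan through which Thbs1 binds cells, was at 447.19, 588.4 and 532.47 TPM in SHF against 342.13, 357.09 and 288.87 TPM in CNC, with a difference of 0.66 and an adjusted p of 0.82. *Jag1*, a Notch ligand, was higher in CNC at 63.5 ± 28 against 33.3 ± 7.01 TPM (SD, n = 3), with an adjusted p of 0.887 by limma. *Cd47*, the receptor through which Thbs1 limits nitric oxide signalling, was at 376 ± 121 TPM in SHF and 462 ± 194 TPM in CNC libraries (SD, n = 3). *Cd36*, chosen after its values were seen, was above 0 in SHF replicate 2 (159.58 TPM), SHF replicate 3 (35.77 TPM) and CNC replicate 2 (17.34 TPM), and was listed at 0 elsewhere. *Calr*, a surface partner as well as an endoplasmic reticulum chaperone, overlapped between the lineages.

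TGF-β ligands and latent binding proteins, 8 genes, included 1 that separated the lineages, or 12.5% higher in CNC against 5.68% of all genes. This was *Ltbp1*, which tethers latent TGF-β in the matrix, at 77.64, 95.52 and 55.79 TPM in SHF against 226.9, 102.12 and 168.73 TPM in CNC. The difference was -1.07 with a standard error of 0.46 and an adjusted p of 0.82. *Tgfb1*, the ligand whose latent form Thbs1 activates, was low, with 7.78 TPM the highest value and 0 in 3 libraries, and was chosen after its values were seen. *Tgfb3* was the most abundant ligand, at 203 ± 45.4 TPM in SHF and 265 ± 82.5 TPM in CNC libraries (SD, n = 3).

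Of 7 tested proteases, the 2 that separated the lineages were both higher in CNC, 28.6% of the list against 5.68% of all genes. *Htra1*, a secreted serine protease, was at 311.46, 490.21 and 334.2 TPM in SHF against 1172.9, 675.39 and 947.23 TPM in CNC, with a difference of -1.29 and an adjusted p of 0.475. *Mmp2*, which Thbs2 helps to clear, was at 1130 ± 223 TPM in SHF and 1540 ± 138 TPM in CNC libraries (SD, n = 3). *Adamts1*, which cleaves Thbs1 and Thbs2, was at 247 ± 50.8 and 185 ± 50 TPM (SD, n = 3), with overlap.

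Of 17 tested other proteins with thrombospondin type 1 repeats, 2 were higher in every SHF library and 2 in every CNC library, 11.8% in each direction against 6.11% and 5.68% of all genes. *Wisp1* was at 30.56, 45.8 and 31.96 TPM in SHF against 8.11, 0 and 10.4 TPM in CNC. *Wisp2*, of the same CCN family, went the other way, at 373.33, 222.46 and 246.01 TPM in SHF and 731.19, 455.75 and 1242.37 TPM in CNC, with a difference of -1.44 and an adjusted p of 0.529. *Adamtsl4* was also higher in CNC and *Adamtsl2* higher in SHF. *Cyr61* and *Ctgf*, the most abundant genes of the list, overlapped, and SHF replicate 1 was the highest library for both, at 2019.01 and 1997.75 TPM. In the nitric oxide and cGMP pathway, which Thbs1 restrains through Cd47, 0 of 8 tested genes separated the lineages. *Gucy1b3* and *Gucy1a3*, the subunits of soluble guanylate cyclase, and *Vasp*, a kinase substrate of the pathway, were at or below 76.68 TPM in every library.

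**Figure D4:**
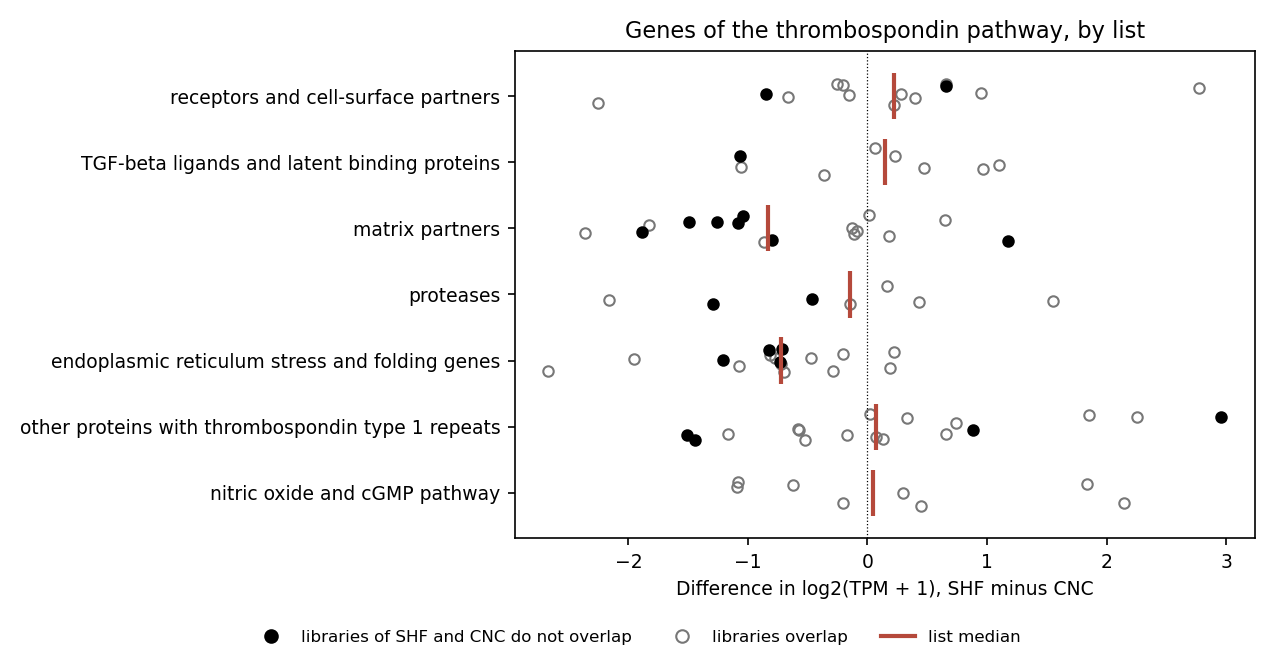
Difference in log2(TPM + 1), SHF minus CNC, of the 85 tested genes of the thrombospondin pathway, by list. Each point is a gene, filled where the SHF and CNC libraries do not overlap, and the vertical bar is the list median. The filled points of the matrix, protease and folding lists lie to the left, higher in CNC, with *Vcan* the exception.

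The genes nearest to the members in RefSeq were mostly low, which leaves little to compare. *Mtx1*, which neighbours *Thbs3*, was at 17.12, 31.06 and 17.5 TPM in SHF against 31.45, 22.46 and 19.03 TPM in CNC. *Mtx3*, the neighbour of *Thbs4*, was at most 6.15 TPM and its highest library was CNC replicate 1. *Crtc1*, next to *Comp*, was at most 10.26 TPM, *Fsip1*, next to *Thbs1*, was listed at 0 in all 6 libraries and *Gm13986* was at most 0.33 TPM. *Mtx2*, the third metaxin, was at 82.79 TPM or below. The other 5 neighbours had no row under their symbols.

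For each member, the genes with the highest Pearson r of log2(TPM + 1) over the 6 libraries were taken as a description of likeness. The points share 2 lineages and few libraries, and between 9 and 60 genes had an r of at least 0.95 with a member. For *Comp* the closest were *Igfbp5*, an insulin-like growth factor binding protein (r = 0.993), *Gm3893* and *H2-D1* (both r = 0.987). For *Thbs1* they were *Fdx1l* (r = 0.998), *Clu*, which encodes the secreted chaperone clusterin (r = 0.983), and *Sap30l* (r = 0.978). *Clu* was at 431.21, 382.53 and 170.59 TPM in SHF against 120.36, 172.04 and 122.31 TPM in CNC, so that it fell with *Thbs1* in SHF replicate 3. For *Thbs2* they were *Adgra2* (r = 0.991), *Map2k1* (r = 0.989) and *Xrcc2* (r = 0.985), for *Thbs4* *Tmem53* (r = 0.994), *Rap1gap2* and *Mpv17l* (both r = 0.993), and for *Thbs3* *Pcdhgb4* (r = 0.981), *Gmds* (r = 0.978) and *Ifi205* (r = 0.97). *Gmds* and *Ifi205* were highest in CNC replicate 2, as *Thbs3* was, at 198.4 and 173.65 TPM.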

How the data were processed

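Bulk RNA was measured in 6 libraries of sorted cells. The authors amplified it by the SmartSeq2 protocol, ran RSEM 1.2.25 with bowtie2 on mm10, and deposited the estimated levels as TPM. The annotation they used is not given in the sources used here. Columns were matched to samples by library code. Levels were tested with limma 3.58.1 in R 4.3.3 (trended eBayes) on log2(TPM + 1) for the 10185 genes that reached 1 TPM in 3 or more libraries, adjusted by Benjamini-Hochberg, with a threshold of 0.05. In simulated data for the 10185 genes of this comparison, 40.5% of 200 genes changed by 4 on the log2 scale were recovered.

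The members and lists were chosen with earlier results of these data known. Named partner genes were the 3 most abundant of each list, any with an adjusted p under 0.05, and up to 2 with the largest difference among those without overlap. The 3 genes most like each member and its nearest neighbours were added, with the metaxins. *Cd36*, *Tgfb1*, *Vcan*, *Col1a2*, *Matn2*, *Dnajc3*, *Adamtsl2* and the marker genes were named after their values were seen. Positions are from GENCODE M21 and neighbours and promoters from RefSeq, both on GRCm38, the build of mm10. The study describes the 3 libraries of each lineage as biological replicates, in a figure legend. The alternatives were other pseudocounts, filters and scalings, eBayes without a trend, a replicate block and each library left out. Single-cell data were not analysed here. Scripts used Python 3.11.15, pandas 2.3.3 and matplotlib 3.10.9.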

Additional observations from a re-analysis of the deposited data

How the results depend on the processing

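The 4 members with a log2 difference kept its direction with a replicate block, quantile or median-of-ratios scaling, a pseudocount of 0.1 or 5, another filter and eBayes fitted with no trend. Leaving out each library in turn gave 1.81 to 3.04 for *Thbs1*, 0.77 to 0.94 for *Thbs2*, -0.68 to 0.27 for *Thbs3* and -1.37 to -1.06 for *Comp*. That of *Thbs3* turned to 0.27 without CNC replicate 2. No difference is given for *Thbs4*, which is listed at 0 in CNC libraries. It was the 1 member past the exclusive filter at thresholds of 1 and 10 TPM, with the other lineage under 1 TPM, and without each library. No gene passed in limma under the alternatives, except that with a pseudocount of 5 the number of genes higher in CNC was 1, *Gm13305*, and no partner gene passed. The replicate numbers did not pair the libraries. The correlations of deviations for numbers 1, 2 and 3 were -0.011, -0.004 and -0.011, and with the replicate block 0 genes passed.

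Of 390 values of 28 partner genes under alternatives, 382 had the direction of the reported value and did not pass the test. The exceptions were *Dcn* under quantile normalization (0.04), *Calr* (0.06) and *Gucy1b3* (0.36) without CNC replicate 2, *Cd47* without CNC replicate 1 (0.05), *Gucy1a3* without SHF replicate 2 (0.18), *Ctgf* without SHF replicate 1 (-0.38), and *Cyr61*, at -0.38 without SHF replicate 1 and -0.08 if CNC replicate 2 is left out. For these the cause was not tested. The ranges without each library were -0.49 to 0.06 for *Calr*, -0.57 to 0.05 for *Cd47*, -0.38 to 0.54 for *Cyr61*, -0.38 to 0.82 for *Ctgf*, -0.91 to 0.36 for *Gucy1b3* and -1.23 to 0.18 for *Gucy1a3*. The median of the proteases, -0.15, became 0.1 under quantile normalization and 0.44 with a pseudocount of 0.1. Unknown depth and frequent values of 0 limit all of these comparisons.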
